A study of Mus musculus with 32 samples.

Results

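The genes described here are 9 members of the BCL2 family that start or carry out mitochondrial cell death: Bcl2l11, Bmf, Bbc3, Pmaip1, Bid, Bad and Bik, which are BH3-only genes, and Bax and Bak1, which are effector genes. They were chosen by symbol, as every array probe that carried one of these names, which gave 9 genes out of 35019 named genes and 11 probes out of 55681 probes. Bcl2l11 and Bad had 2 probes each, and each other gene had 1. Measured values were not used to choose them.

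RNA was measured on 32 mouse gene expression arrays with 2 colours. On 24 of them the sample was labelled with Cy5 and a common RNA pool with Cy3, so each value is the log2 ratio of a sample to that pool, and 0 means the level of the pool. The pool was mixed from splenic B cells of both ATM genotypes with and without anti-IgM, tumours, and germinal centre B cells. These 24 arrays held 9 B cell lymphoma lines of strain ATMKO.CD3epsilonKO (12 arrays, lines 1001, 1004, 1007, 1010, 1013, 1016, 1019, 1036 and 1039), germinal centre (GC) B cells of ATMWT mice immunised with sheep red blood cells, labelled SRBC (3 arrays), and splenic B cells of strains ATMKO.CD3epsilonKO and ATMWT.CD3epsilonKO. The splenic B cells were untreated (3 ATMKO arrays and 1 ATMWT array) or cultured with 15 ug/ml of goat anti-mouse IgM, which crosslinks the B cell receptor, for 3 h (ATMKO, 1 array), 6 h (ATMKO, 2 arrays, and ATMWT, 1 array) or 24 h (ATMKO, 1 array). The 6 h samples also carry a label of 3 h in another field of their description, and the titles were followed. Arrays of 1 sample were averaged, which left 9 lines, 1 GC sample, 2 untreated samples and 4 anti-IgM samples. The other 8 arrays each set cells treated with 100 nM PCI-32765 (ibrutinib, an inhibitor of the kinase BTK), in Cy5, directly against cells with the vehicle DMSO, in Cy3. They covered 2 further lymphoma lines of strain ATMKO.CD3epsilonKO, 178119 and 28545, at 1, 3, 6 and 24 h. No ages were used here. All mice but those that gave GC B cells lacked CD3 epsilon, which T cells need. Each lymphoma is a single line, and all lack ATM, so tumour state, ATM genotype and strain cannot be told apart in a comparison with GC B cells. Nothing in the labels says whether the splenic samples came from separate animals, so p-values measure the spread between these samples.

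ATM is a kinase that signals DNA breaks, in part by activating the transcription factor p53. BH3-only proteins sense stress: each binds the groove of survival proteins such as BCL2 and MCL1, and some also activate the effectors BAX and BAK directly. The effectors then form pores in the outer mitochondrial membrane, which releases cytochrome c and starts the caspase cascade. In B cells the BH3-only protein BIM, the product of Bcl2l11, is known for the removal of autoreactive cells after receptor ligation, and PUMA and NOXA, the products of Bbc3 and Pmaip1, are known as p53 targets. ATM is not the only route to either gene.

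Because the array reads each gene at a single stretch of 60 bases, the stretch decides which transcripts count, and the genes with a pair of probes are shown here. The main probe of Bcl2l11 crosses an intron at chr2:127972893-127983988 (mm9, plus strand), is listed for 3 RefSeq variants, and begins inside the BH3 motif itself; the capitals mark the codons of the core of that motif.
Bcl2l11: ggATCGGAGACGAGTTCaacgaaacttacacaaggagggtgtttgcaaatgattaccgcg
The other Bcl2l11 probe lies upstream, at chr2:127954736-127955417 (mm9), and was listed for no RefSeq variant. One Bad probe spans an intron at chr19:7016918-7017403 (mm9, plus strand), and the capitals mark an ATG in a reading frame that holds no stop codon within the probe.
Bad: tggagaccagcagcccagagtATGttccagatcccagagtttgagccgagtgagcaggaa
The main Bad probe lies further along the gene, at chr19:7026323-7026382. The remaining members were each read by 1 probe inside a RefSeq transcript, without a gap in the genome: Bmf at chr2:118354496-118354555 (minus strand), Bbc3 at chr7:16903403-16903462, Bid at chr6:120843464-120843523 (minus strand), Bik at chr15:83374048-83374107, Bax at chr7:52717122-52717181 (minus strand) and Bak1 at chr17:27156807-27156866 (minus strand), all in mm9. The Pmaip1 probe is not shown. The probes with a RefSeq transcript therefore sit in exons, and whether each lies in coding or untranslated sequence was not determined here.

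The 250 bases upstream of each listed transcription start (RefSeq, GRCm38.p6) were searched on both strands for TGTTTAC, the core that FOXO factors bind, and for CACGTG, an E-box that MYC and related factors bind. The motifs were chosen after the expression values had been seen. The table held 13 windows for 7 members, and Bik and Pmaip1 are named only. TGTTTAC occurred in 1 window of Bcl2l11 and 1 of Bbc3, and in 1040 of all 32851 windows of that length (3.17%). CACGTG occurred in 1 window of Bbc3 and in the window of Bax, and in 1978 windows (6.02%). The windows of Bbc3 (second listed start, chr7:16310011-16310260, plus strand, motif beginning 167 bases before the start) and Bax (chr7:45466899-45467148, minus strand, motif beginning 9 bases before the start) are shown because these genes moved in opposite directions under PCI-32765 after the loess correction, although not with median centring, where both were higher. Capitals mark the motif.
Bbc3: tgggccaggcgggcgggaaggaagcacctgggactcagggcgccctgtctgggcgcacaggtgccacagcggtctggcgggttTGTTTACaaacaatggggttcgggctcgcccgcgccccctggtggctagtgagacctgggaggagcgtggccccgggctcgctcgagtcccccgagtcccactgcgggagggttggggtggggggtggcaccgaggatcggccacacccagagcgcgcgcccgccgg
Bax: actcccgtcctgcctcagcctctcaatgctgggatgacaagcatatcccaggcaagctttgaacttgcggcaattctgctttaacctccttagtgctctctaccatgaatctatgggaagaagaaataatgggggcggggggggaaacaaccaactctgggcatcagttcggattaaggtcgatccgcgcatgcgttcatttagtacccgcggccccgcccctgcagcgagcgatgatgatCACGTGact
These letters are a description of the windows and not evidence of binding. No window of Bmf held either motif.

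Some arrays stood apart. The Cy5 channel was well above background at 21.9% of probes on the first array of line 1039 and 29.3% on the first array of GC B cells, against 44.8% to 59.9% on the others and 85.5% at 24 h in line 28545. That GC array correlated with its repeats at r = 0.09 over probes, while the other two GC arrays correlated at 0.98, and the 2 arrays of line 1039 correlated at 0.35. The differences from GC are given with and without the poor arrays of GC and line 1039. Of the markers fixed for other cells, all 6 neutrophil, all 6 macrophage, all 7 T cell and all 5 NK cell genes were above background on every untreated splenic array, as were all 8 B cell genes. The mean log2 ratio of the neutrophil markers was 1.40 to 1.50 in the untreated samples, 0.39 to 1.58 with anti-IgM, -5.36 to -2.95 in the 9 lymphoma lines and -3.80 in the GC sample. The macrophage markers averaged 0.72 to 0.85, -0.39 to 1.15, -3.16 to -1.83 and -2.29 in the same order. On average, markers of other cell types were thus higher in the splenic samples than in the lymphoma lines, and their part in the differences below was not tested. Single markers went the other way. Cd68, a macrophage marker, averaged 0.34 in the lines, 0.00 in untreated cells and -0.41 with anti-IgM. Cd3g, a T cell marker, averaged 0.89, -1.01 and -1.82 in the same order. In bulk samples, fewer cells of a type and less RNA per cell cannot be told apart. GC B cell markers averaged 0.84 in the GC sample, -0.89 to -0.26 in the lymphomas and -2.46 to -1.98 in untreated cells.

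**Figure D1:**
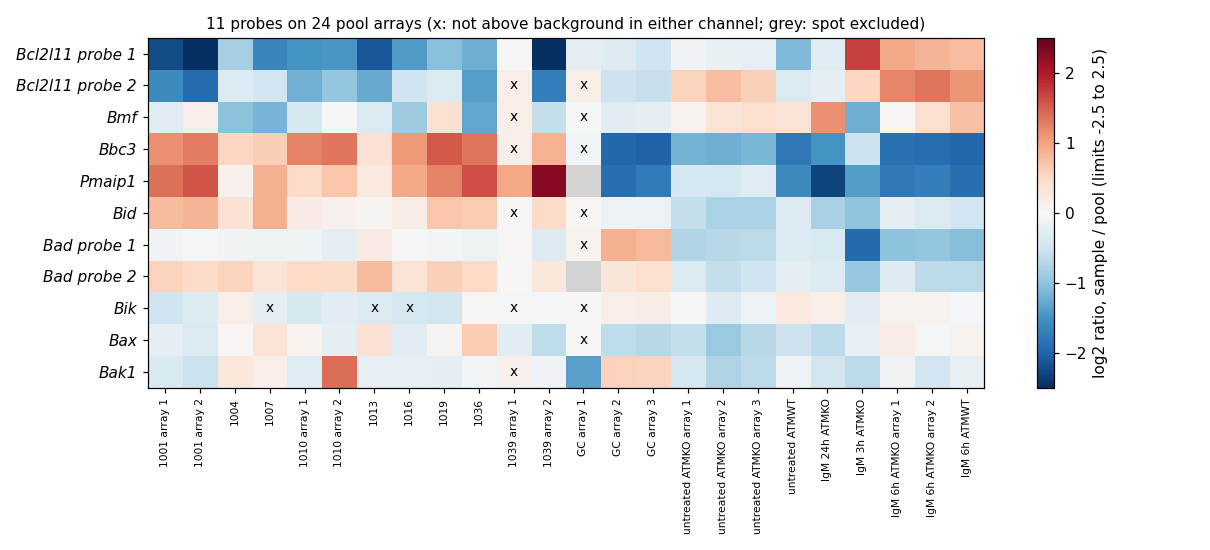
Log2 ratio to the pool (colour) of the 11 probes (rows) on each of the 24 pool arrays (columns). Bbc3 and Pmaip1 are red on the lymphoma arrays and blue on nearly all normal B cell arrays, and the first arrays of line 1039 and of GC B cells hold most of the spots marked as not above background.

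Bbc3 encodes PUMA, which binds all the main survival proteins. It was higher in the lymphoma lines than in every kind of normal B cell. Normal here means not lymphoma, and includes splenic B cells that lack ATM. The lines ranged from 0.36 (line 1013) over a median of 1.06 to 1.52 (line 1019) in log2 ratio to the pool. The GC sample stood at -1.36, untreated ATMKO at -1.18, untreated ATMWT at -1.78, and the anti-IgM samples at -0.53 (3 h), -1.88 (6 h), -1.50 (24 h) and -1.97 (6 h, ATMWT). No lymphoma line overlapped any normal sample. For this gene and those below, the share of all genes that separated in this way is not given here. The lines exceeded the GC sample by 2.29 ± 0.49 (log2 difference ± standard error; 9 lines and 1 sample; adjusted p = 0.0093), untreated cells by 2.42 ± 0.36 (9 and 2 samples; adjusted p = 0.000132) and anti-IgM cells by 2.41 ± 0.28 (9 and 4 samples; adjusted p = 8.08e-06), which is a ratio of 4.89, 5.35 and 5.30. All adjusted p-values are from limma with Benjamini-Hochberg adjustment over all genes tested, the threshold is 0.05, and a lone sample is assumed to vary as the other groups do. The difference from GC B cells hung on which GC arrays were used: without the poor arrays of GC and line 1039 it was 2.97 (adjusted p = 0.000762), and with only the first array of each sample it was 0.96 (adjusted p = 0.297). With slide as a block it was 1.93 (adjusted p = 0.0334), and within the slides that held both groups it was 0.96 and 3.16. Against untreated cells the 3 slides gave 2.66, 2.07 and 2.34.

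Pmaip1 encodes NOXA, which mainly binds MCL1 and relatives. Like Bbc3 it was higher in the lymphoma lines than in the normal samples. The lines ranged from 0.10 (line 1004) over a median of 0.95 to 1.62 (line 1039). The GC sample stood at -1.82, from 2 arrays because the spot on the other was excluded as an outlier. Untreated cells stood at -0.38 (ATMKO) and -1.60 (ATMWT), and anti-IgM samples at -1.40 (3 h), -1.75 (6 h), -2.32 (24 h) and -1.88 (6 h, ATMWT). Every line lay above every normal sample, although line 1004 was within 0.5 of untreated ATMKO cells. The differences were 2.79 ± 0.55 from GC (adjusted p = 0.00548), 1.96 ± 0.41 from untreated (adjusted p = 0.00163) and 2.80 ± 0.31 from anti-IgM cells (adjusted p = 5.3e-06). Without untreated ATMWT the second of these was 1.35 and no longer passed the threshold (adjusted p = 0.0781). The 3 slides gave 2.31, 1.42 and 1.88 against untreated cells and 2.81, 2.59 and 3.22 against anti-IgM cells, and the 1 slide that could give it gave 3.34 against GC.

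Bid differs from the other BH3-only genes in that its protein needs cleavage, usually by caspase 8, to become active. The lines ranged from 0.06 (line 1013) over a median of 0.37 to 0.90 (line 1007). Untreated cells stood at -0.73 (ATMKO) and -0.34 (ATMWT), anti-IgM samples between -1.01 and -0.30, and the GC sample at -0.09. All lines lay above all 7 normal samples, the GC sample by a narrow margin. Bid was higher than in untreated cells by 0.99 ± 0.23 (adjusted p = 0.00415) and than in anti-IgM cells by 1.10 ± 0.18 (adjusted p = 0.000176), close to a doubling in level (ratios of 1.98 and 2.14). The difference from GC, 0.54 ± 0.32, did not pass (adjusted p = 0.327; 95% interval -0.14 to 1.21). Without untreated ATMKO the difference from untreated cells was 0.80 and did not pass (adjusted p = 0.0957).

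Bcl2l11 went the other way. Its protein BIM binds all survival proteins and can activate BAX and BAK. The lines ranged from -2.48 (line 1001) over a median of -1.42 to -0.83 (line 1004), and the probe was above background on 9 of the 12 lymphoma arrays, the other 3 being both arrays of line 1001 and the second of line 1039. Untreated cells stood at -0.16 (ATMKO) and -1.10 (ATMWT), the GC sample at -0.35, and anti-IgM samples at 1.71 (3 h), 0.90 (6 h), -0.31 (24 h) and 0.77 (6 h, ATMWT). Lines overlapped with untreated ATMWT cells and with no other normal sample. Bcl2l11 was lower in the lines than in anti-IgM cells by 2.27 on the log2 scale (difference -2.27 ± 0.35, adjusted p = 9.21e-05). With the scanner's processed signals, scaled by the median in place of loess, this was -3.30 (adjusted p = 0.000563). Without background correction it was -2.46, so its size depended on the processing. The differences from untreated cells (-0.87 ± 0.45, adjusted p = 0.147) and GC (-1.15 ± 0.61, adjusted p = 0.269) did not pass. The upstream probe gave -1.54 against anti-IgM cells (adjusted p = 0.00129 over 30669 probes), -1.02 against untreated cells (adjusted p = 0.0747) and -0.56 against GC (adjusted p = 0.611). Both probes thus gave a lower level in the lines than with anti-IgM. In line 1039 the main probe read 0.02 on the poor array and -2.66 on the repeat.

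Bmf, whose protein is tied to the cytoskeleton and binds survival proteins after detachment or stress, varied more among lines than between groups. The lines ranged from -1.30 (line 1036) over a median of -0.36 to 0.38 (line 1019). Untreated cells stood at 0.27 and 0.32, the GC sample at -0.17, and anti-IgM samples at -1.21 (3 h), 0.23 (6 h), 1.15 (24 h) and 0.74 (6 h, ATMWT). The groups overlapped, and no difference passed: -0.84 ± 0.50 from untreated (adjusted p = 0.216), -0.76 ± 0.39 from anti-IgM (adjusted p = 0.121) and -0.37 ± 0.68 from GC (adjusted p = 0.799). Without the 3 h sample the difference from anti-IgM cells was -1.25 and passed (adjusted p = 0.00668).

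Bad, a BH3-only protein held inactive by phosphorylation downstream of growth factors, was nearly level across the lines. They ranged from -0.17 (line 1010) over a median of -0.09 to 0.20 (line 1013). The GC sample stood above all of them, at 0.60, and the splenic samples below: -0.70 and -0.35 untreated, and -1.95 (3 h), -0.99 (6 h), -0.37 (24 h) and -1.07 (6 h, ATMWT) with anti-IgM. Bad was higher in the lines than in anti-IgM cells by 1.02 ± 0.20 (adjusted p = 0.000683). The difference from untreated cells was 0.45 ± 0.26 (adjusted p = 0.188), and it passed by the intron-spanning probe (0.83 ± 0.17, adjusted p = 0.00143 over 30669 probes) and without the 3 h anti-IgM sample (adjusted p = 0.0367). Against GC the main probe gave -0.67 ± 0.35 (adjusted p = 0.259) and the intron-spanning probe 0.12 (adjusted p = 0.818), so the probes differed in sign there; the intron-spanning spot was excluded on the first GC array. Bik, known for a role at the endoplasmic reticulum, was above background on 3 of 12 lymphoma arrays and ranged there from -0.47 to 0.15. Its differences from GC, untreated and anti-IgM cells were -0.35, -0.28 and -0.21 and none passed (adjusted p = 0.421, 0.244 and 0.237). With the scanner's processed signals they were -1.78, -1.38 and -1.13, and none passed, so the size of these differences was not settled.

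The effector Bax ranged in the lines from -0.44 (line 1039) over a median of 0.04 to 0.64 (line 1036). Untreated cells stood at -0.74 (ATMKO) and -0.51 (ATMWT), the GC sample at -0.44, and anti-IgM samples at -0.20, 0.06, -0.66 and 0.10. With all arrays, every line lay above both untreated samples, line 1039 by the smallest margin. Without the poor arrays of GC and line 1039 the lowest line stood at -0.63, below untreated ATMWT cells. The difference from untreated cells was 0.67 ± 0.25 and just missed the threshold (adjusted p = 0.0546); it passed in 7 of 29 alternatives, among them slide as a block (0.59, adjusted p = 0.036) and the removal of line 1039 (0.73, adjusted p = 0.0316), line 1001 (0.71, adjusted p = 0.0462), line 1016 (0.70, adjusted p = 0.0496) or the 24 h anti-IgM sample (adjusted p = 0.0377). Bax did not pass against anti-IgM cells (0.22 ± 0.20, adjusted p = 0.391) or GC (0.49 ± 0.34, adjusted p = 0.433). The other effector, Bak1, ranged from -0.46 (line 1001) over a median of -0.06 to 0.55 (line 1010) in the lines, from -0.66 to -0.19 with anti-IgM, stood at -0.61 and -0.12 untreated and at -0.08 in the GC sample. Its groups overlapped, and its differences were 0.05 (GC, adjusted p = 0.942), 0.34 (untreated, adjusted p = 0.248) and 0.37 (anti-IgM, adjusted p = 0.0809). Without line 1001 the last was 0.43 and passed (adjusted p = 0.0425). The difference of Bak1 from GC turned with the arrays used: it was -0.60 without the poor arrays of GC and line 1039 (adjusted p = 0.199) and 1.25, past the threshold, with only the first array of each sample (adjusted p = 0.00503). Bak1 was poorly repeated: the arrays of line 1010 read -0.30 and 1.40, and the GC arrays -1.35, 0.57 and 0.55.

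**Figure D2:**
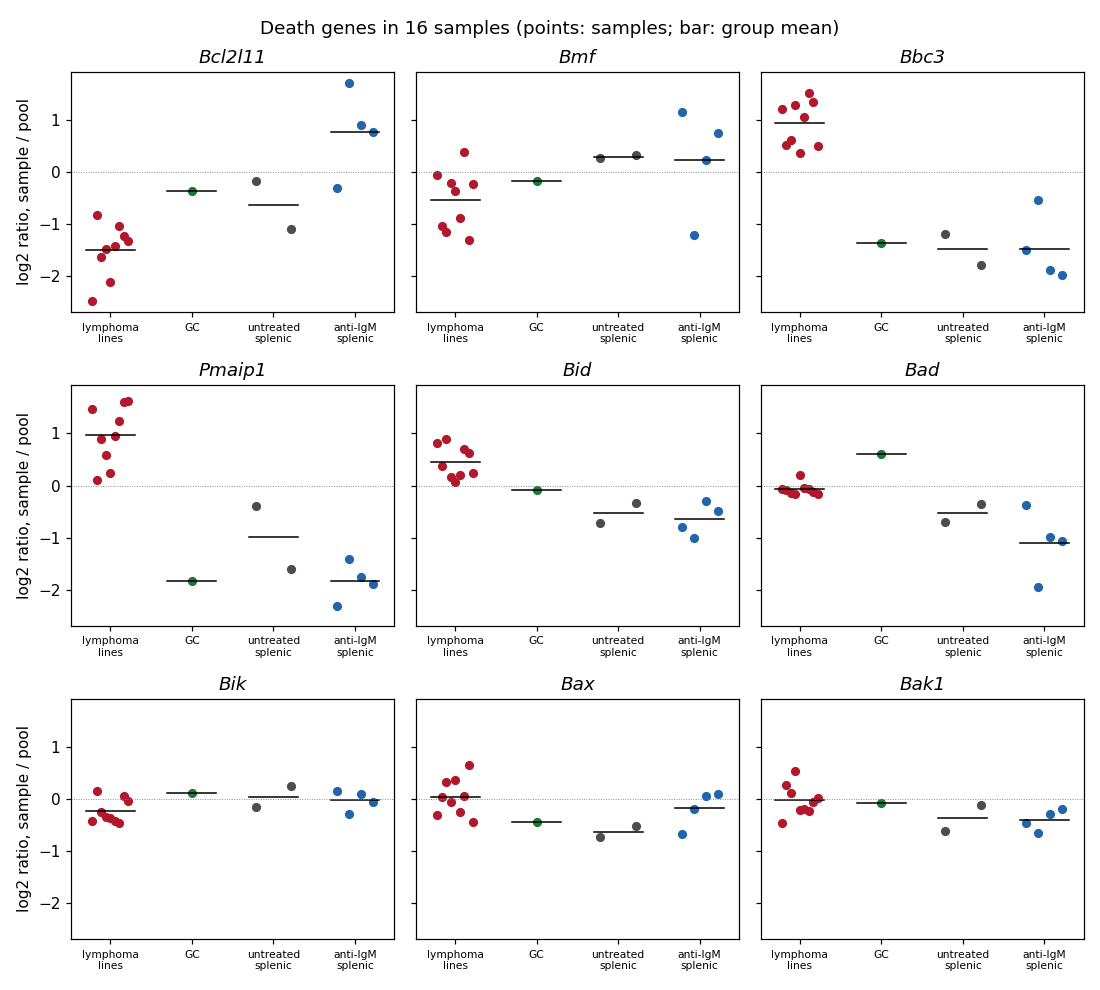
Log2 ratio to the pool (y axis) in each of the 16 samples by group (x axis), with 1 panel a gene; points are samples (arrays of 1 sample averaged) and bars are group means. All 9 lines sit above all 7 normal samples for Bbc3, Pmaip1 and Bid, and the anti-IgM samples reach highest for Bcl2l11. The share of all genes that separate in this way is not given.

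**Figure D3:**
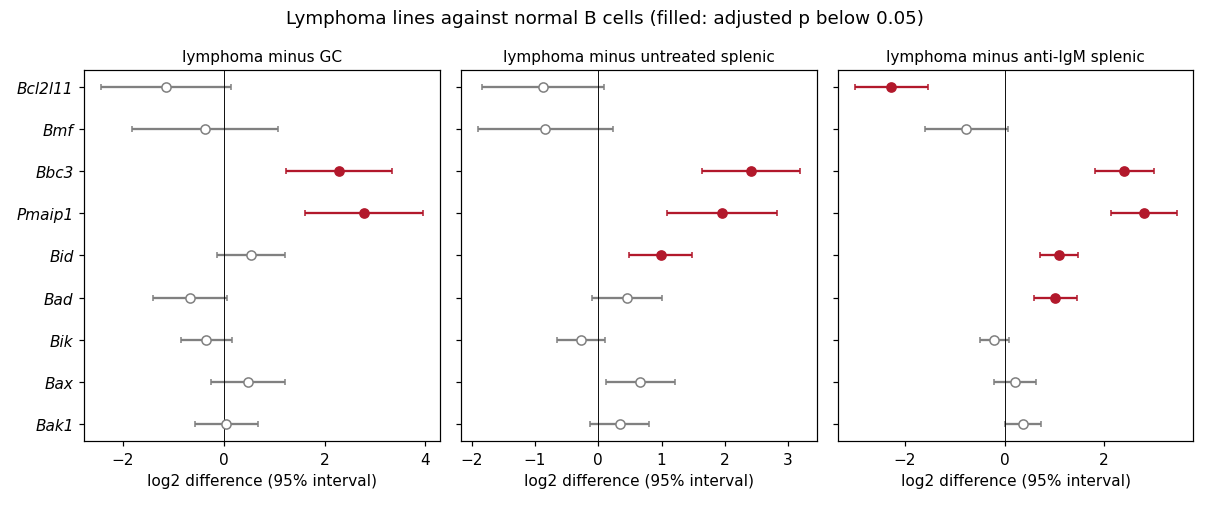
Log2 difference between the lymphoma lines and each kind of normal B cell (x axis; the 3 panels differ in scale) with its 95% interval, for the 9 genes (rows); filled points passed an adjusted p of 0.05. Bbc3 and Pmaip1 passed in all 3 panels, Bid in 2, and Bad (higher) and Bcl2l11 (lower) against anti-IgM cells alone.

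Counted over the genes, 2 of 9 differed between lymphoma lines and GC B cells, both higher, where 9.77% of all 21419 genes tested did (4.41% higher and 5.36% lower). Against untreated cells 3 of 9 differed, all higher, where 35.8% of genes did (14.7% higher and 21.1% lower). Against anti-IgM cells 5 of 9 differed, 4 higher and 1 lower, where 46.0% did (21.2% higher and 24.8% lower). Counted in either direction, the share of members that changed was thus near the background in the comparisons with splenic cells. The share that was higher lay above it there (3 of 9 against 14.7% and 4 of 9 against 21.2%). Such counts, and that of 2 in the comparison with GC, are too small to set apart from the background. The median difference over the 9 genes was 0.05, 0.45 and 0.37 in the 3 comparisons, against -0.04, -0.01 and 0.01 over all genes. These comparisons share the same 9 lines. Without the poor arrays of GC and line 1039 the same members passed in each. The differences from GC were then 2.86 for Pmaip1 (adjusted p = 0.0066), 0.63 for Bid (0.201), -0.94 for Bad (0.0888), 0.68 for Bax (0.242), -1.24 for Bcl2l11 (0.247), -0.34 for Bmf (0.803) and -0.41 for Bik (0.29).

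Among the lymphoma lines themselves, the standard deviation was 0.57 for Bmf, 0.57 for Pmaip1, 0.52 for Bcl2l11, 0.44 for Bbc3, 0.35 for Bax, 0.31 for Bid, 0.30 for Bak1, 0.23 for Bik and 0.11 for Bad, against a median of 0.24 over all genes. Repeat arrays of 1 sample gave a smaller standard deviation for every member but Bak1: 0.06 for Bbc3, 0.10 for Pmaip1, 0.15 for Bcl2l11 and 0.22 for Bmf, but 0.51 for Bak1, with the poor arrays left out. With line 1039 read from its repeat alone, the standard deviation among lines was 0.56 for Bmf, 0.69 for Pmaip1, 0.64 for Bcl2l11, 0.41 for Bbc3 and 0.30 for Bak1. These values are a description, with no test. With all arrays, line 1001 had the lowest Bcl2l11 (-2.48) and a high Bbc3 (1.21) and Pmaip1 (1.47), while line 1013 was low in Bcl2l11 (-2.12) and had the lowest Bbc3. Read from its repeat alone, line 1039 had the lowest Bcl2l11 (-2.66). Across the 16 samples Bbc3 and Pmaip1 correlated at r = 0.92, and across the 9 lines alone at 0.48. Bcl2l11 and Bad correlated at -0.80 and -0.45. These are descriptions: the samples share the pool, and the groups differ in both genes of each pair.

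By correlation over the same 16 samples, the genes with patterns most like Bbc3 were Ldlrad4 (r = 0.97), Slit3 (0.96) and Fhit (0.96), and those most like Pmaip1 were Kdm1b (0.96), Gnal (0.95) and Flacc1 (0.94). Neighbours listed only by a transcript identifier or a position are not named, and one of these stood first for Bcl2l11 (r = 0.93) and for Bid (0.95). Of named genes, Bcl2l11 was most like 6330412A17Rik and Itprid2 (both 0.92), Bid like Ap1s2 (0.93), Bad like Dctn5 and Ccdc167 (both 0.95), Bax like Olfr1229 (0.94) and Ddx49 (0.90), Bmf like Nek8 (0.89), Bak1 like Prnd (0.87) and Bik like Egfl8 (0.86). No member was among the 3 genes nearest to another.

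GC B cells of immunised mice and untreated splenic B cells were compared as states after and before an immune response. The GC mice were ATMWT and did not lack CD3 epsilon. Both untreated samples came from mice without CD3 epsilon, 1 of them also without ATM. Cell state, strain and ATM genotype therefore cannot be told apart here. No member passed, where 11.5% of 21419 genes did (4.61% higher and 6.90% lower). Bad came nearest, with 0.60 in the GC sample against -0.70 and -0.35, a difference of 1.12 ± 0.40 (adjusted p = 0.089). It passed without the first GC array (1.38, adjusted p = 0.0288) and without the 3 h (adjusted p = 0.00888) or the 24 h anti-IgM sample (adjusted p = 0.0265), which lend their spread to the test. The intron-spanning Bad probe gave 0.72 (adjusted p = 0.101). Bak1 changed direction with the arrays used: 0.29 with all 3 GC arrays (adjusted p = 0.678), 0.92 without the poor arrays (adjusted p = 0.0796) and -1.08 with only the first array of each sample (adjusted p = 0.0377).

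Anti-IgM was compared with no treatment to describe B cells after receptor ligation. No time in culture is listed for the untreated samples, so time in culture and ligation cannot be told apart here. Taken over 4 anti-IgM and 2 untreated samples with genotype as a term, no member passed, and neither did any of the 22301 genes tested by limma (0%), of which 1678 had an unadjusted p under 0.05. Bcl2l11 had the highest value of any member, 1.31 ± 0.61 (adjusted p = 0.716), and Pmaip1 the lowest, -0.98 ± 0.39 (adjusted p = 0.662; unadjusted p = 0.0498). By time, each from 1 sample and so with no test, ATMKO Bcl2l11 lay 1.88 above untreated ATMKO cells at 3 h, 1.06 above at 6 h and at -0.15 at 24 h, and in ATMWT cells it lay 1.87 above at 6 h. Bcl2l11 was thus highest at 3 h and back near its untreated level at 24 h. Pmaip1 lay at -1.02, -1.37 and -1.94 relative to untreated ATMKO cells and at -0.28 in ATMWT cells at 6 h. Bmf and Bad shared a low point at 3 h (-1.49 and -1.25), from which Bmf reached 0.88 and Bad 0.33 at 24 h. Bax lay 0.54, 0.80 and 0.07 above untreated ATMKO cells and 0.61 above in ATMWT cells. With only the 6 h samples, Bcl2l11 (1.47, adjusted p = 0.00891) and Bax (0.71, adjusted p = 0.0136) passed, as did 28.5% of genes, but that test rests on 1 residual degree of freedom. NK cell markers averaged 1.28 to 1.35 in untreated samples and -0.77 to 0.87 with anti-IgM. T cell markers were also lower with no overlap (0.38 to 0.61 against -0.09 to 0.32). So were erythroid markers (1.21 to 1.65 against -1.50 to 1.13), B cell markers (0.38 to 0.39 against -0.89 to -0.03) and GC B cell markers. The ranges of the neutrophil and macrophage markers overlapped between these groups. No marker passed in the test over all times, where no gene did, and the part of these markers was not tested.

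**Figure D4:**
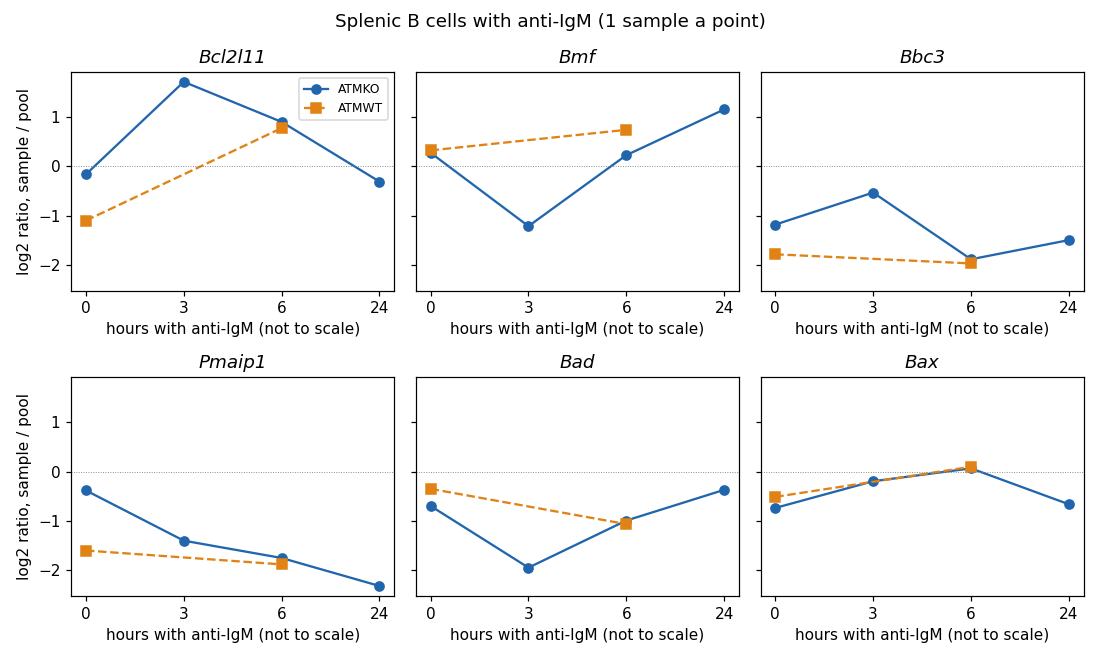
Log2 ratio to the pool (y axis) of 6 genes against hours with anti-IgM (x axis, not to scale; 0 is untreated), with 1 sample a point. In ATMKO cells (circles) Bcl2l11 peaks at 1.71 at 3 h, Bmf and Bad are lowest at 3 h, and Pmaip1 is lowest at 24 h.

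ATMKO and ATMWT splenic B cells were compared over 4 and 2 samples with treatment as a term. No member passed, and none of the 22301 genes did by limma (0%); 131 had an unadjusted p under 0.05. Bbc3 gave 0.64 ± 0.41 (95% interval -0.40 to 1.68), Pmaip1 0.52 ± 0.39 (-0.45 to 1.50), Bcl2l11 0.37 ± 0.61 (-1.18 to 1.93) and Bax -0.31 ± 0.25 (-0.95 to 0.33), each with an adjusted p of 1. The intervals are wide: a difference of 1 in either direction lies inside that of Bcl2l11. Both ATMWT samples shared a slide, where the 24 h sample was the only ATMKO splenic one, so slide and genotype were nearly inseparable. With slide as a block the sign changed for Bcl2l11 (-0.95), Pmaip1 (-0.18), Bmf (0.71), Bad (0.70) and Bik (0.11). It held for Bbc3 (0.43), Bax (-0.75), Bid (-0.36) and Bak1 (-0.30), and no member passed.

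PCI-32765 was compared with DMSO to see how the genes respond when signalling through BTK is blocked. All drug-treated samples carried Cy5 and all vehicle samples Cy3, so a dye effect cannot be told apart from the drug's effect in these values. Over 8 arrays 4 of the 8 members tested passed, 3 higher and 1 lower, where 32.4% of 17915 genes passed (16.8% higher and 15.7% lower); the median over these members was 0.04 and over all genes 0.01. Bik was above background on 1 array only, at 24 h in line 28545, and was not tested.

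Bmf responded most. In line 178119 it stood at 0.69, 1.06, 0.78 and 1.34 at 1, 3, 6 and 24 h, as the log2 ratio of drug to DMSO, and in line 28545 at 0.44, 0.81, 1.20 and 1.10. Bmf was higher with the drug on 8 of 8 arrays, and the level at 24 h exceeded that at 1 h in both lines. The mean was 0.93 ± 0.06, a ratio of 1.90 (adjusted p = 1.22e-05), and it was 0.97 in line 178119 and 0.89 in line 28545. By time the means were 0.57 at 1 h (adjusted p = 0.135), 0.94 at 3 h (0.00274), 0.99 at 6 h (0.00069) and 1.22 at 24 h (0.000271), each over 2 lines. Without line 178119 at 3 h that time gave 0.81 and did not pass (adjusted p = 0.106). The gain from 1 to 24 h, 0.65 ± 0.18, missed the threshold (adjusted p = 0.0592; 7.18% of genes passed, 3.47% higher and 3.71% lower), and passed without either 6 h array (adjusted p = 0.0493 and 0.0498).

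Bax was lower with the drug on 8 of 8 arrays after the loess correction used here. Line 178119 gave -0.39, -0.51, -0.42 and -0.66 at 1, 3, 6 and 24 h, and line 28545 gave -0.10, -0.28, -0.64 and -0.68. Its mean was -0.46 ± 0.06 (adjusted p = 0.00021), and it was -0.53 at 6 h (adjusted p = 0.00734) and -0.67 at 24 h (adjusted p = 0.00257). This direction depended on the scaling: with each array centred on its median and no loess, the mean of Bax was 0.23 (adjusted p = 0.0433), where the median of all genes shifted to 0.42, so that Bax lay at -0.20 relative to that median. With the scanner's own processed signals it was -0.26 (adjusted p = 0.0356), -0.43 relative to a median of 0.17. Those settings also moved the split of calls: 51.7% of the genes that passed were higher with loess, 87.3% with processed signals and 99.1% with median centring. Bmf stayed higher under each: 1.13 with processed signals and 1.49 with median centring, or 0.96 and 1.06 relative to the median. At 24 h Bax passed with the deposited ratios (-0.66, adjusted p = 0.0208), but not with processed signals (-0.50, 0.0767) or median centring (-0.19, 0.517). At 6 h it passed with none of them (-0.45, -0.33 and -0.08; adjusted p = 0.057, 0.19 and 0.836). Relative to the median of all genes, median centring gave 0.05 at 1 h, -0.05 at 3 h, -0.32 at 6 h and -0.49 at 24 h. Without line 28545 the 6 h value of Bax was -0.42 and did not pass (adjusted p = 0.0994).

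Bbc3 rose in the mean of the times, by an amount that depended on the scaling. It stood at 0.40, 0.37, 0.66 and -0.13 in line 178119 and at 0.16, 0.31, 0.32 and -0.09 in line 28545. It was higher at 1, 3 and 6 h in both lines and slightly below 0 at 24 h in both. The mean was 0.25 ± 0.05 (adjusted p = 0.00621), and of the single times only 6 h passed (0.49, adjusted p = 0.0103), which it did not without line 178119 at 6 h (0.32, adjusted p = 0.208). With median centring the mean of Bbc3 was 1.04, or 0.62 relative to the median of all genes, and it passed at 1 h (1.27, adjusted p = 0.000105), 3 h (1.39, adjusted p = 1.75e-05) and 6 h (1.04, adjusted p = 0.00093). The difference between 24 h and 1 h was -0.39 ± 0.16 (adjusted p = 0.155). Bad gave 0.15, 0.14, 0.31 and 0.21 in line 178119 and 0.12, 0.20, 0.35 and 0.27 in line 28545, with a mean of 0.22 ± 0.04 (adjusted p = 0.00404) and 0.33 at 6 h (adjusted p = 0.0217), which did not pass without either 6 h array (adjusted p = 0.135 and 0.132). With median centring the mean of Bad was 0.87, or 0.45 relative to the median. The intron-spanning Bad probe did not show this: its mean was 0.06 (adjusted p = 0.604 over 25980 probes), and it passed at 6 h alone (0.55, adjusted p = 0.0207).

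The remaining members did not pass at any time after loess. Pmaip1 had a mean of -0.10 ± 0.05 (adjusted p = 0.157), with -0.21 in both lines at 24 h; with median centring its mean was 0.63, or 0.21 relative to the median of all genes. Bid had a mean of 0.07 (95% interval -0.04 to 0.18) and Bak1 of 0.00 (-0.13 to 0.14). With median centring both passed, Bid at 0.88 (adjusted p = 1.47e-08; 0.46 relative to the median) and Bak1 at 0.74 (adjusted p = 2.63e-07; 0.31 relative to it), so these intervals hold for the loess values alone. Bcl2l11 had a mean of 0.01 (-0.11 to 0.13), which line 28545 alone can inform: in line 178119 neither of its probes was above background in either channel at any time, while in line 28545 the main probe was in both channels at all 4 times, at 0.10, 0.10, -0.09 and 0.03. The difference between the lines in their response passed for no member and for 0 of 17915 genes by limma (649 had an unadjusted p under 0.05). For Bmf it was -0.08 (95% interval -0.38 to 0.22), for Bax 0.07 (-0.19 to 0.33) and for Bbc3 -0.15 (-0.39 to 0.09).

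By time, 0 of 8 members passed at 1 h, where 18 of 17915 genes did (0.100%, with 0.0279% higher and 0.0726% lower) and 2825 had an unadjusted p under 0.05. At 3 h 1 of 8 passed, where 7.35% did (3.15% higher and 4.20% lower). At 6 h 4 of 8 passed, 3 higher and 1 lower, where 24.3% did (12.0% higher and 12.3% lower), and at 24 h 2 of 8, 1 in each direction, where 23.1% did (11.1% and 12.0%). Bmf was the only member past the threshold at 3, 6 and 24 h. Without the 24 h array of line 28545, which stood apart, Bmf at 24 h was 1.34 and Bax -0.66, both still past the threshold.

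**Figure D5:**
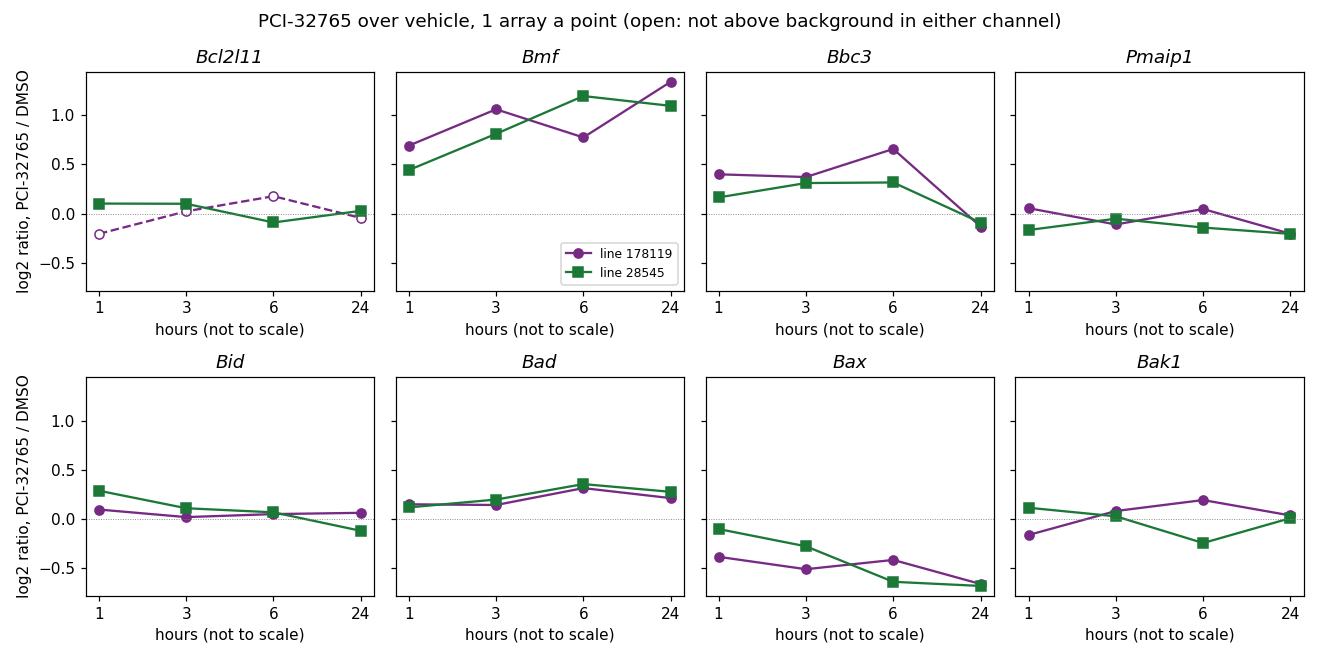
Log2 ratio of PCI-32765 to DMSO (y axis) for 8 genes against hours of treatment (x axis, not to scale) in lines 178119 (circles) and 28545 (squares), with 1 array a point after loess. Bmf lies between 0.44 and 1.34 throughout, Bax lies below 0 throughout (with median centring its mean was 0.23), and Bbc3 is above 0 until 24 h.

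Survival relatives of BCL2, which the BH3-only proteins bind, were a list of 8, of which 4 could be tested in the lymphoma comparisons. Bcl2 was higher in the lines than in GC B cells (2.51 ± 0.43, adjusted p = 0.00266) and lower than in untreated cells (-0.93 ± 0.32, adjusted p = 0.0353), and it was lower in GC B cells than in untreated cells (-3.44 ± 0.51, adjusted p = 0.000882). Bcl2l2, which encodes BCL-W, was higher than in GC (1.50), untreated (1.24) and anti-IgM cells (1.12). Against GC 2 of 4 rose and none fell, against untreated 1 rose and 1 fell, and against anti-IgM 1 rose. For this and the lists below, the share of all genes that passed was 9.77%, 35.8% and 46.0% in these comparisons and 32.4% in the mean under PCI-32765. Under PCI-32765, 1 of 4 rose and 1 fell in the mean: Mcl1, a short-lived survival protein, rose by 0.21 (adjusted p = 0.00594) and Bcl2 fell by 0.68 (adjusted p = 1.81e-05). Of 8 other BCL2 family genes, 6 were tested on the pool arrays. In the lines 1 of 6 was higher than in GC, 1 than in untreated cells and 3 than in anti-IgM cells, and none was lower. Bnip3, a mitophagy receptor induced by low oxygen, was higher in the lines than in GC (5.90), untreated (4.36) and anti-IgM cells (3.09). Under the drug Bcl2l14 rose by 0.81 (adjusted p = 4.27e-05) and Moap1 fell by 0.17 (adjusted p = 0.0427), among 4 tested.

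Of 10 regulators listed for these genes, 4 were higher and 3 lower in the lines than in untreated cells, where 35.8% of all genes passed. Bach2, a repressor of plasma cell genes, was lower by the most (-4.86 ± 0.85), Trp73, a relative of p53, was higher (3.20 ± 0.73), and Myc was lower (-2.52 ± 0.52). Against GC only Bach2 passed (-5.37), and against anti-IgM cells 4 rose and 4 fell, led by Bach2 (-5.44), Trp73 (3.59) and Foxo3 (2.13). Under PCI-32765 1 of 9 rose and 1 fell in the mean. Myc stood at -1.05 at 1 h, -2.47 at 3 h, -2.18 at 6 h and -0.45 at 24 h, and passed at each. Foxo1, which activates several BH3-only genes, had a mean of 0.30 (adjusted p = 0.00195) and passed at 24 h alone (0.91, adjusted p = 0.000513). Trp53, which encodes p53, was at -1.22 at 6 h (adjusted p = 0.000363).

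Other p53 targets were read beside Bbc3 and Pmaip1. Of 15 tested, 4 were higher and 1 lower in the lines than in GC, 8 and 2 against untreated cells, and 8 and 3 against anti-IgM cells, where 9.77%, 35.8% and 46.0% of all genes passed. Cdkn1a, the cell cycle inhibitor p21, was higher by 3.91, 3.48 and 2.75. Zmat3 was higher by 2.46, 2.69 and 3.26, and Ccng1 by 2.77, 1.96 and 2.08. Sesn1 was lower than in untreated (-2.89) and anti-IgM cells (-1.87). Under the drug 2 rose (Btg2 0.72 and Trp53inp1 0.55) and 3 fell (led by Aen, -0.47). The list's median was 0.39, 0.62 and 0.96 in the lymphoma comparisons and -0.05 under the drug, against -0.04, -0.01, 0.01 and 0.01 over all genes.

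Downstream, among 15 apoptosome, caspase and inhibitor genes reported here, 2 rose against untreated cells (Birc5 1.57 and Cflar 1.02) and 7 against anti-IgM cells (led by Birc5 2.68, Casp9 1.20 and Cflar 1.20), and none fell in either comparison, where 35.8% and 46.0% of all genes passed. Under PCI-32765 2 of 13 rose and 3 fell in the mean. Cflar, an inhibitor of caspase 8, fell by 1.00, Birc3, an inhibitor of apoptosis, fell by 0.59, and Htra2, a mitochondrial protease, fell by 0.48. The changes under PCI-32765 given for this and the other lists are loess values. Median centring moved the median of all genes to 0.42. Small falls, such as those of Htra2, Aen and Moap1, may therefore depend on the scaling as that of Bax did.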

How the data were processed

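Total RNA of 32 samples was hybridised to Agilent mouse arrays with 2 colours. The deposited files are scanner output; per the file headers they were written by Feature Extraction 10.1.1.1, while the submitters' processing notes name Feature Extraction 9.1 and limma. The mean and background intensity of each spot, as deposited by the authors, was the starting value. The deposited value table holds the scanner's log10 ratio, per the file headers turned to Cy5 over Cy3 here, and served as an alternative.

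Intensities were corrected with normexp (offset 50) and loess in limma 3.58.1 (R 4.3.3). Control spots and outlier spots were left out, spots of a probe averaged, and probes kept where either channel was well above background on at least 0.5 of a comparison's arrays. The brightest probe stood for a gene. Arrays of 1 sample were averaged, genes lacking a value in a sample were left out (188, 16 and 1713 in the pool, splenic and drug fits), and linear models with eBayes were fitted over all genes, with Benjamini-Hochberg adjustment and a threshold of 0.05. Residual degrees of freedom were 12, 3 and 4. The pipeline was tested on simulated data. No member spot was saturated (0), and 2 were excluded as outliers. The number of arrays limits the precision. On the drug arrays, a line is the same cell line at each time, so the labels pair the times; the deviations of the lines correlated between times at -0.35 to 0.23. The members, the gene lists and the tests were chosen with earlier results of these data known. The text names all members in each comparison and, of each list, up to 3 genes that passed, taken by size of difference. One gene of the list of apoptosome, caspase and inhibitor genes is not reported here and is left out of that list's counts. Alternatives (42) covered background correction, centring, filters, the slide and the line as blocks, probes, and each sample left out; 4 were added after seeing the data. Sequences come from the deposited probe annotation (mm9) and RefSeq (GRCm38.p6).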

Additional observations from a re-analysis of the deposited data

Results flagged for a closer look

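Bad in lymphoma line 1013 stood at 0.203 in log2 ratio to the pool, apart from the other 8 lines, of which the nearest was at -0.04 and the lowest at -0.17. With all arrays, the gap was 0.66 of the range of the 9 lines, above the limit of 0.493 for a group of that size. In all, 18 groups of values were checked in this way, and chance marks about 1 group in 20. Without the poor arrays described above, the lowest line stood at -0.33 and line 1013 still at 0.203. The same gap was then a smaller share of a wider range and fell below the limit, so the flag depends on a poor array and does not hold without it. The intron-spanning Bad probe was also highest in line 1013, at 0.80.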

How the results depend on the processing

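In the lymphoma comparisons, the directions of Bbc3, Pmaip1 and Bid (higher) and of Bcl2l11 and Bad against anti-IgM cells held under every alternative that could be fitted. Counts of members past the threshold moved as follows. Lymphoma lines against GC gave 1 in place of 2 with a stricter filter on dim probes (2 members tested), with slide as a block and with only the first array of each sample. In the last 2 settings Pmaip1 was not tested; the 1 member was Bbc3 with the block and Bak1 with the first array. Against untreated cells the count was 2 to 4 in place of 3 over all alternatives. Against anti-IgM cells the stricter filter gave 2 of 2 in place of 5, and the count reached 6 in others. GC against untreated cells gave 1 in place of 0 with only the first array, without GC replicate 1, without both poor arrays and with spots below background set missing, and 0 to 1 with single samples left out. Bak1 reversed there with only the first array, to -1.08. Anti-IgM against untreated gave 2 with the 6 h samples alone. For PCI-32765, median centring in place of loess gave 7 of 8 in the mean, at 1 h and at 3 h, and reversed Bax (0.23 in the mean, 0.64 at 1 h, 0.54 at 3 h), Pmaip1 (0.63, 0.85 and 0.91) and Bak1 at 1 h (0.90), with the median of all genes at 0.42, 0.60 and 0.58. Processed signals gave 1 in place of 2 at 24 h. Leaving out single arrays gave 0 to 1 at 3 h, 2 to 4 at 6 h and 0 to 1 for 24 h minus 1 h. With the line as a replicate block 4 members passed in the mean, as without it, and the block changed no other call on the drug arrays. Where not shown by the setting itself, the cause was not tested. Probes near background, such as Bik and in some lines Bcl2l11, limit what can be read.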
